A study of Homo sapiens with 4 samples.

Results

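The response of A549 cells to silencing of TAZ was measured on 2 of the 4 arrays of the series. A549 is an established human lung adenocarcinoma cell line with epithelial morphology. One A549 culture received the control siRNA siNTC and the other siTAZ, an siRNA directed at TAZ, the protein encoded by WWTR1. Both were transfected with the lipid reagent RNAiMAX, and RNA was taken 48 h later; reagent, transfection and time are shared by both groups. The other 2 arrays hold the same pair of treatments in H441, a second lung adenocarcinoma line. Neither the sequence of siTAZ nor the number of siRNAs in it is given in the sources used here. Each value below is a log2 signal of 1 whole-transcript array. Levels are given for siNTC first and siTAZ second, and a difference is siTAZ minus siNTC on the log2 scale. A gene was counted if its signal on at least 1 of the 2 A549 arrays reached the median of the whole table, a log2 signal of 6.13. This kept 11405 of 18377 genes. With 1 array per side there is no replicate, so no difference has a p-value, and "higher" and "lower" compare these 2 arrays.

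TAZ and its paralog YAP are transcriptional coactivators that carry no DNA-binding domain and reach DNA mainly through the TEAD factors. The Hippo kinase cascade, MST and LATS with their adaptors, phosphorylates both proteins, which are then held in the cytoplasm by 14-3-3 proteins or degraded. In epithelial cells TAZ and YAP respond to cell density, adhesion and actin tension, and matricellular genes such as CCN1 and CCN2 are their classic targets.

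The core of the TEAD recognition site reads GGAATG, and the promoters of 4 lowered genes that hold it more than once are printed here because they set the list of known targets beside the measured differences. They are ANKRD1, NUAK2 and CCN2, from the list of established YAP/TAZ targets, and TM4SF1, a tetraspanin-like membrane protein gene chosen after its promoter was searched. Each is the 250 bases before the annotated start, 5′ to 3′ on the gene's strand, from RefSeq on GRCh38.p14. The motif on either strand (GGAATG or its reverse complement CATTCC) is in capitals. All 4 genes lie on the minus strand, at chr10:90921088-90921337 (ANKRD1), chr1:205321746-205321995 (NUAK2), chr6:131951373-131951622 (CCN2) and chr3:149377650-149377899 (TM4SF1).
ANKRD1: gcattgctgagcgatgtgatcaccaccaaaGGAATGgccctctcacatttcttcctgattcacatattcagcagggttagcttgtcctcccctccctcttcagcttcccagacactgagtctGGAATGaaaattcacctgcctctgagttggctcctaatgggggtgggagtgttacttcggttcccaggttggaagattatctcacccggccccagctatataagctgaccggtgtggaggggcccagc
NUAK2: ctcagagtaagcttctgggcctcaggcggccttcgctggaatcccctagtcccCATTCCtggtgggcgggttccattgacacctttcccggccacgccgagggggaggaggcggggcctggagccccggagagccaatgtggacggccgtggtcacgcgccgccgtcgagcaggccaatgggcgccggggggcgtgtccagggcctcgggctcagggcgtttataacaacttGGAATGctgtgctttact
CCN2: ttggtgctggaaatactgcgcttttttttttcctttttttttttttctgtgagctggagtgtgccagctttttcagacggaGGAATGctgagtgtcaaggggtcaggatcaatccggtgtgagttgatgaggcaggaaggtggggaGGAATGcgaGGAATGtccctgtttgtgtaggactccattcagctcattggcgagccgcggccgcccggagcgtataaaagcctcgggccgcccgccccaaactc
TM4SF1: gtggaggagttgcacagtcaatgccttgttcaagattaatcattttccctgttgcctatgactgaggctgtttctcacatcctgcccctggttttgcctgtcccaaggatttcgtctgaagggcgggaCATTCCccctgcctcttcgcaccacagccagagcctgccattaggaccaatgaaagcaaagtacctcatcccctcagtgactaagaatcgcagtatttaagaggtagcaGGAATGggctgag

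Counted from the base before the start as -1, the motif began at -220 and -128 in ANKRD1, at -197 and -18 in NUAK2, at -169, -104 and -95 in CCN2, and at -122 and -13 in TM4SF1. ANKRD1, an ankyrin repeat protein of muscle and of stretched epithelium, had 6.87 with siNTC and 5.58 with siTAZ, 2.44-fold lower. NUAK2, an AMPK-related kinase, had 8.33 with siNTC and 7.58 with siTAZ, 1.69-fold lower. CCN2, connective tissue growth factor, had 7.88 with siNTC and 7.30 with siTAZ, 1.497-fold lower, just under the 1.5-fold line. TM4SF1 was one of the brighter genes on the arrays, with 12.65 with siNTC and 11.98 with siTAZ, 1.59-fold lower. The motif was searched in the RefSeq promoter windows of 250 bases before and 50 after the start, on both strands. It lay in 8 of 18 windows of counted YAP/TAZ targets (44.4%), against 961 of 9236 windows of all counted genes (10.4%) and 3836 of 27305 in the whole promoter table (14.05%). It lay in 12 of 98 windows of genes at least 1.5-fold lower (12.2%) and in 18 of 157 of genes at least 1.5-fold higher (11.5%). At 2-fold it lay in 1 of 10 windows of lower genes (10%) and in 5 of 27 of higher genes (18.5%). The motif was thus about as frequent in either 1.5-fold set as in all counted genes, while the list of known targets held it more often. The share among known targets does not depend on the measured differences. A match of 6 letters is a description of the sequence and not of binding.

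The label of the cells was checked against marker genes. All 10 markers of A549 epithelial cells were counted, with siNTC signals between 6.65 and 13.57 and medians of 12.15 with siNTC and 12.24 with siTAZ. Their summed linear signal was 53898 with siNTC and 47618 with siTAZ. Of the surfactant markers of alveolar type II cells, 2 of 7 on the array were counted, none with an siNTC signal above 6.36. Of 7 fibroblast markers 1 was counted, of 5 leukocyte markers 2, and of 5 endothelial markers none, the last between 4.93 and 5.52 with siNTC. Summed linear signals of the fibroblast markers were 409 with siNTC and 462 with siTAZ, and those of the leukocyte markers 621 and 725. CD14, a leukocyte marker that other cells can express, had 7.22 with siNTC and 7.94 with siTAZ, 1.65-fold higher. The part of other cells in any result was not tested. In a bulk sample, fewer cells of a type and less RNA per cell cannot be told apart.

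The 2 arrays were close to each other. Median signals over all 28869 probe sets were 6.05 with siNTC and 6.06 with siTAZ, and the arrays correlated at r = 0.994 across probe sets, which are not independent replicates. Over the counted genes the differences had a median of 0.0051 and an SD of 0.24, with 5810 genes higher (50.9%) and 5518 lower. At least 1.5-fold differences were seen in 201 genes higher with siTAZ (1.76% of counted genes) and 122 lower (1.07%). At least 2-fold differences were seen in 36 higher (0.316%) and 12 lower (0.105%). The next sections read the members of each pathway against these shares. A single member is already 5% of a list of 20 counted genes, above either 1.5-fold share. C4BPA (1.50003-fold) and PIGA (1.49968-fold) stood on either side of the 1.5-fold line for higher genes, and EFHD2 (1.50214-fold) and SNORD13P3 (1.49903-fold) on either side of it for lower genes. At the 2-fold line the neighbours were MTPN (2.01-fold) and SEPTIN10 (1.99-fold) among higher genes, and PLK2 (2.05-fold) and ITGA6 (1.96-fold) among lower genes.

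**Figure D1:**
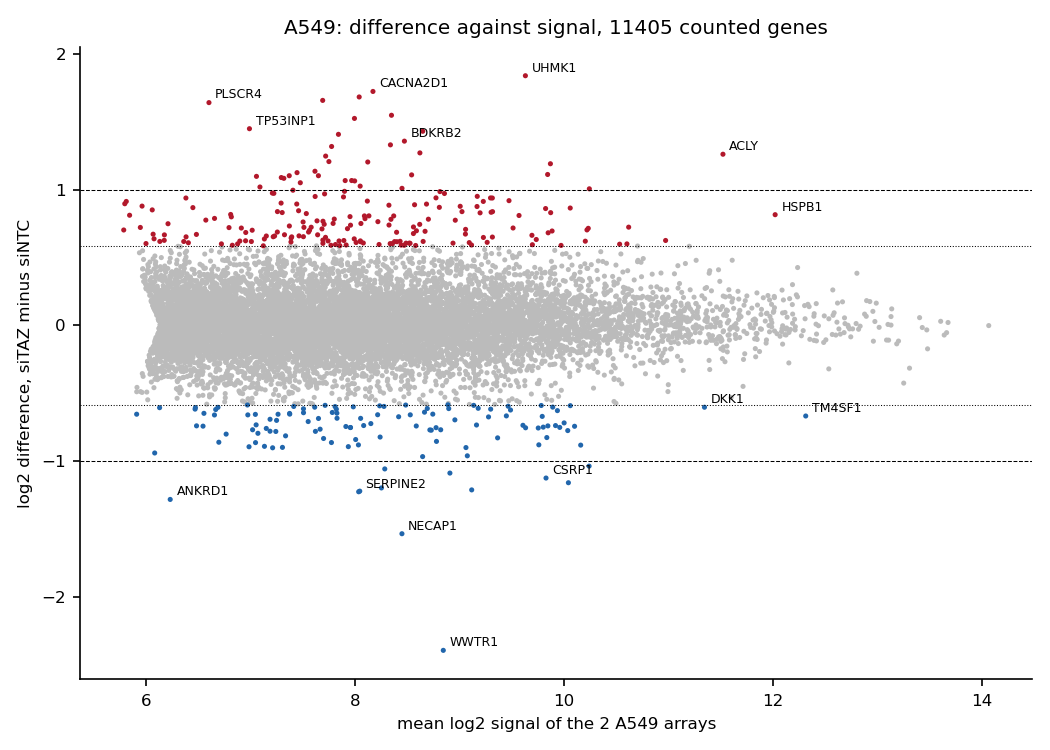
Log2 difference between the A549 arrays (siTAZ minus siNTC, vertical axis) against the mean log2 signal of both (horizontal axis), 1 point per counted gene. Dotted lines mark 1.5-fold and dashed lines 2-fold; red genes are at least 1.5-fold higher and blue genes at least 1.5-fold lower, and WWTR1 lies lowest at -2.40.

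With the counted genes split by mean signal into 4 bins of equal size, those at least 1.5-fold higher numbered 31, 62, 64 and 44 from dimmest to brightest, and the lower ones 14, 36, 33 and 39. Large differences were fewest among the dimmest genes. Of the 323 genes at least 1.5-fold different, 103 belonged to at least 1 of the 59 pathway lists and 39 symbol families used here, as did 3010 of all counted genes.

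WWTR1, the targeted gene, had 10.04 with siNTC and 7.64 with siTAZ, 5.27-fold lower, which left 19.0% of the control signal. It had the largest difference of any counted gene in either direction. YAP1, its paralog, had 9.23 with siNTC and 9.44 with siTAZ, a difference of 0.21. The 4 TEAD genes, which encode the DNA-binding partners, were all counted. TEAD1 had 8.88 with siNTC and 8.63 with siTAZ (-0.24), TEAD4 7.91 with siNTC and 7.67 with siTAZ (-0.24), TEAD2 8.45 with siNTC and 8.55 with siTAZ (0.10) and TEAD3 6.64 with siNTC and 6.60 with siTAZ (-0.04), so the partners stayed within 1.5-fold. VGLL4, which competes with YAP and TAZ for TEAD, had 6.95 with siNTC and 7.33 with siTAZ and VGLL3, another vestigial-like TEAD cofactor, 7.21 with siNTC and 7.44 with siTAZ, differences of 0.38 and 0.24.

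Of 20 counted Hippo pathway genes, none reached 1.5-fold. Among the core kinases and adaptors, 7 of 10 were higher, with a median of 0.10. STK3, which encodes MST2, had 7.37 with siNTC and 7.90 with siTAZ (0.53), and LATS1, the kinase that phosphorylates YAP and TAZ, had 7.26 with siNTC and 7.71 with siTAZ (0.45). LATS2 had 7.54 with siNTC and 7.66 with siTAZ (0.12). Among the upstream scaffolds, 4 of 10 were higher, and the lowest difference was that of WWC1, which encodes the LATS-binding scaffold KIBRA, with 8.74 with siNTC and 8.27 with siTAZ (-0.47). AMOTL2, an angiomotin that binds YAP and TAZ and is itself a target, had 7.35 with siNTC and 6.99 with siTAZ (-0.36). The kinases thus read slightly higher and the scaffolds on both sides of 0.

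The 7 genes of 14-3-3 proteins, which bind phosphorylated TAZ, were all counted. Of them 1 was at least 1.5-fold lower (14.3%, against 1.07% of all counted genes). YWHAH, the eta isoform, had 8.85 with siNTC and 7.65 with siTAZ, 2.30-fold lower. SFN, the sigma isoform of epithelia, had 9.62 with siNTC and 9.24 with siTAZ (-0.38). The brightest isoform, YWHAE, had 12.79 with siNTC and 12.70 with siTAZ. YWHAQ (0.20) and YWHAZ (0.12) were higher, YWHAG (-0.11) and YWHAB (-0.09) lower, all within 1.5-fold. The 2 probe sets of YWHAE disagreed in sign, at -0.09 and 0.08, and the values given are those of the brighter one. YWHAH therefore stood below the other 6, the nearest being SFN.

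Of 25 established YAP/TAZ targets on the array, 22 were counted, 13 lower and 9 higher, with a median of -0.12 against 0.0051 over all counted genes. ANKRD1 passed the signal limit only through the siNTC array, and over all 25 the median was -0.06. The secreted and matricellular members leaned lower, 5 of 8, with a median of -0.35. CCN1, a matricellular protein of adhesion and wound repair, had 7.69 with siNTC and 7.21 with siTAZ (-0.48). FGF2, a growth factor, had 9.33 with siNTC and 8.87 with siTAZ (-0.46), and EDN1, the vasoconstrictor endothelin, had 9.35 with siNTC and 8.95 with siTAZ (-0.40). FJX1, a secreted homologue of four-jointed, had 8.08 with siNTC and 7.78 with siTAZ (-0.30). None of these 8 reached 1.5-fold, CCN2 being the closest. GAS6, the ligand of AXL, was the highest of them, with 6.31 with siNTC and 6.52 with siTAZ (0.22). Among the 14 intracellular and membrane members, ANKRD1 and NUAK2 were at least 1.5-fold lower, and MYOF, a membrane repair protein, had 10.77 with siNTC and 10.33 with siTAZ (-0.43). NT5E, the ecto-5'-nucleotidase CD73 that makes adenosine at the cell surface, lay on the other side with 8.37 with siNTC and 9.34 with siTAZ, 1.96-fold higher. The list therefore held 2 members at least 1.5-fold lower (9.1%) and 1 higher (4.5%), against 1.07% and 1.76% of all counted genes.

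**Figure D2:**
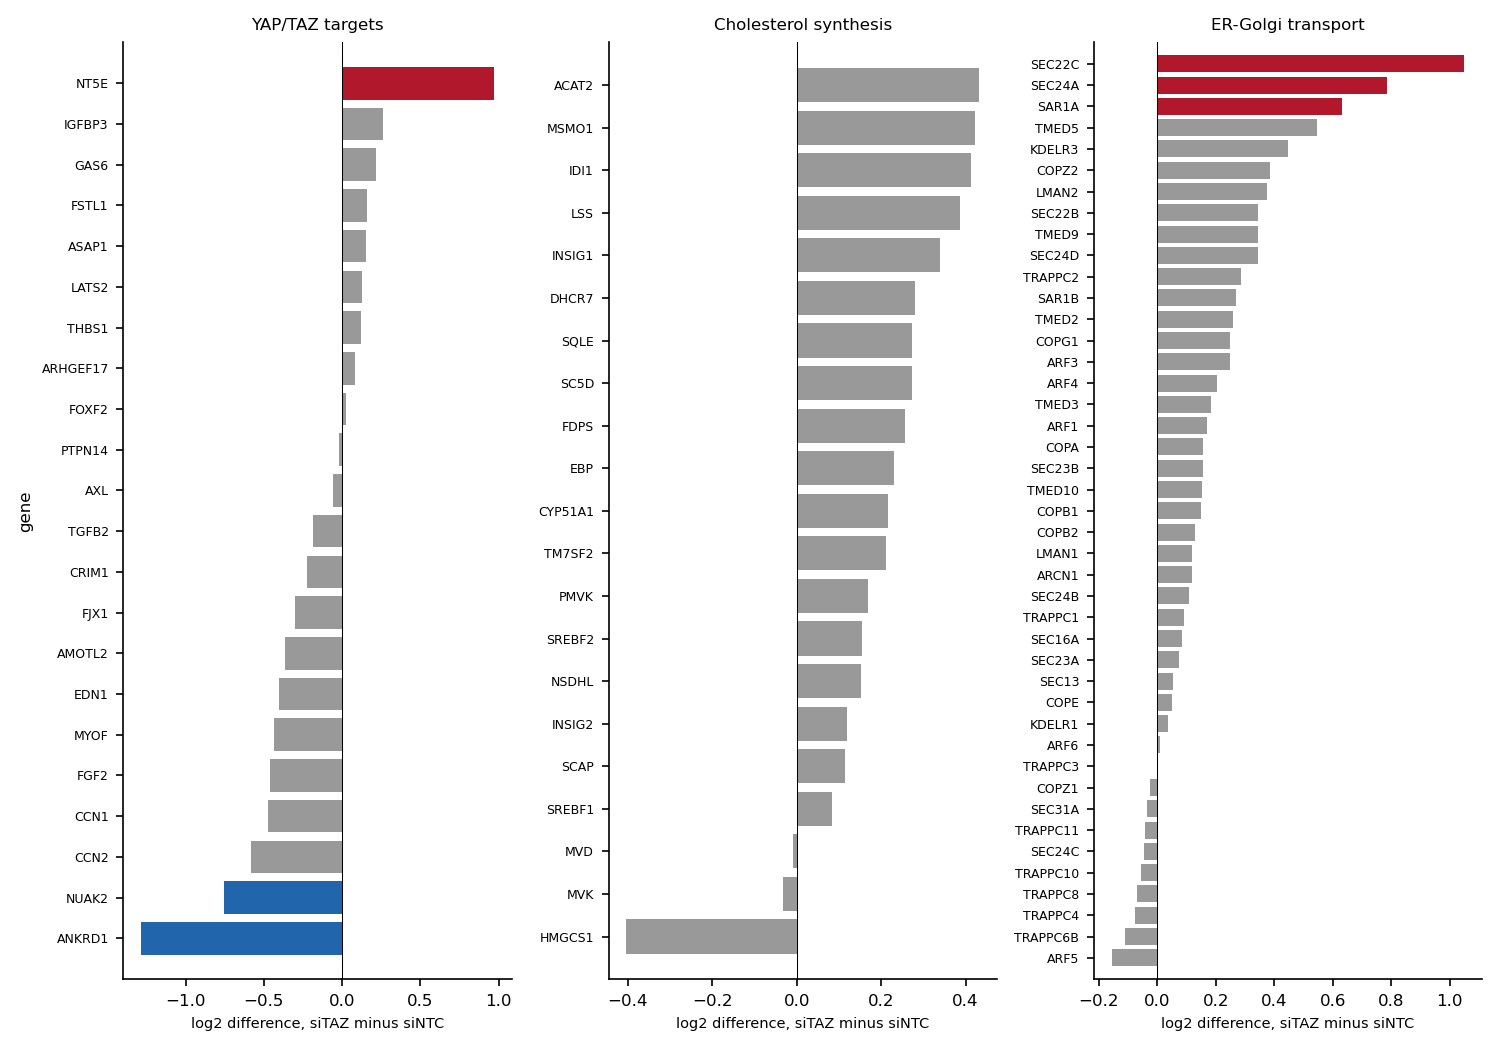
Log2 differences (siTAZ minus siNTC, horizontal axis) of each counted member of 3 gene lists, 1 bar per gene: YAP/TAZ targets, cholesterol synthesis and ER-Golgi transport. Bars at least 1.5-fold higher are red, at least 1.5-fold lower blue, and the rest grey; 13 of 22 targets are lower, 18 of 21 cholesterol genes higher, and 34 of 43 transport genes higher.

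Besides WWTR1 and the genes above, 9 more genes were at least 2-fold lower, and they belonged to unlike processes. NECAP1, an adaptor of clathrin-coated vesicles, had 9.22 with siNTC and 7.68 with siTAZ, 2.90-fold lower. SERPINE2, a secreted inhibitor of thrombin and urokinase, had 8.65 with siNTC and 7.42 with siTAZ, 2.34-fold lower. PKN2, a protein kinase C-related kinase, had 8.65 with siNTC and 7.43 with siTAZ, 2.33-fold lower. All 3 were well above the table median on both arrays. CHCHD3, a subunit of the mitochondrial MICOS complex that shapes cristae, had 9.72 with siNTC and 8.51 with siTAZ, 2.32-fold lower. HMOX1, heme oxygenase, had 10.62 with siNTC and 9.46 with siTAZ, 2.24-fold lower. CSRP1, a LIM protein of actin bundles, had 10.39 with siNTC and 9.26 with siTAZ, 2.18-fold lower. BNIP2, which binds BCL2, had 9.45 with siNTC and 8.36 with siTAZ, 2.13-fold lower. HAS2, which makes hyaluronan, had 8.81 with siNTC and 7.75 with siTAZ, 2.08-fold lower, and PLK2, a polo-like kinase of the centriole cycle, had 10.76 with siNTC and 9.72 with siTAZ, 2.05-fold lower. Each of these kept a signal above the table median with siTAZ.

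The 36 genes at least 2-fold higher included several regulators of signalling and of RNA. UHMK1, a nuclear kinase that phosphorylates splicing and cell cycle proteins, had 8.71 with siNTC and 10.55 with siTAZ. HIPK3, a homeodomain-interacting kinase, had 7.98 with siNTC and 9.25 with siTAZ, 2.41-fold higher. PDCD4, an inhibitor of the translation helicase eIF4A, had 7.67 with siNTC and 9.001 with siTAZ, 2.51-fold higher. Both bradykinin receptor genes were among them. BDKRB2, the constitutive receptor, had 7.79 with siNTC and 9.15 with siTAZ, 2.56-fold higher, and BDKRB1, the inducible receptor, had 7.53 with siNTC and 8.56 with siTAZ, 2.03-fold higher. RC3H2, an RNA-binding roquin that destabilises cytokine mRNAs, had 7.43 with siNTC and 8.50 with siTAZ, 2.09-fold higher. ZC3HAV1L, a zinc finger gene related to the antiviral protein ZAP, had 7.11 with siNTC and 8.43 with siTAZ, 2.49-fold higher. SPOPL, a substrate adaptor of the CUL3 ubiquitin ligase, had 6.88 with siNTC and 8.004 with siTAZ, 2.18-fold higher.

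Further 2-fold higher genes act in membranes and in cell division. PLSCR4, a phospholipid scramblase, had 5.78 with siNTC and 7.42 with siTAZ and so passed the signal limit only with siTAZ. TMEM64 had 7.57 with siNTC and 9.12 with siTAZ, TMEM65, a mitochondrial inner membrane protein, 7.14 with siNTC and 8.54 with siTAZ, and SMIM14 6.86 with siNTC and 8.52 with siTAZ. EFR3A, which anchors a phosphoinositide kinase at the plasma membrane, had 9.27 with siNTC and 10.46 with siTAZ, 2.28-fold higher, and HYCC2, a component of the same complex, had 6.50 with siNTC and 7.60 with siTAZ, 2.14-fold higher. CDH17, a cadherin of intestine and liver, had 6.77 with siNTC and 7.86 with siTAZ, 2.12-fold higher, and APOH, a plasma glycoprotein made by liver, had 7.37 with siNTC and 8.44 with siTAZ, 2.09-fold higher. CENPK, a subunit of the inner kinetochore, had 7.23 with siNTC and 8.75 with siTAZ, and MIS18A, which licenses the loading of the centromeric histone CENP-A, had 7.52 with siNTC and 8.72 with siTAZ, 2.30-fold higher. KIF3A, a motor of kinesin-2 in cilia and transport, had 6.58 with siNTC and 7.60 with siTAZ, 2.03-fold higher. LYSMD3 (2.31-fold), ANKFY1 (2.16-fold), RASEF (2.13-fold), TMEM87B (2.15-fold), TOR1B (2.01-fold) and MTPN (2.01-fold) complete the group with SERPINB9, SMAD5, BAMBI, ACLY, TK2, SEC22C, CACNA2D1, NEK7, TP53INP1, PLEKHA1 and MIGA1. For MIGA1, a mitochondrial fusion factor, the 2 probe sets disagreed, at -0.18 and 1.13, and its place here rests on the brighter one.

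**Figure D3:**
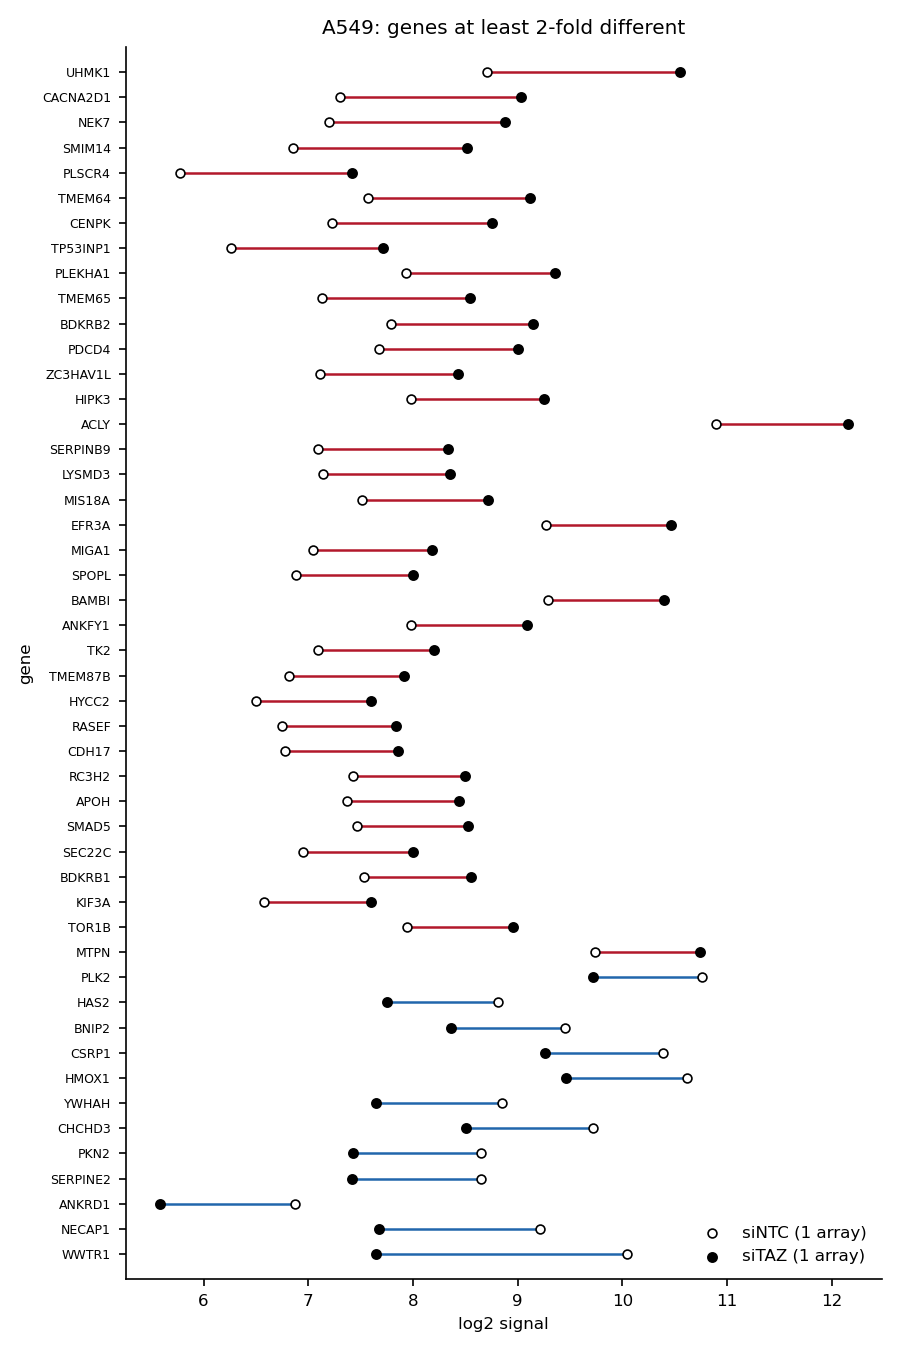
Log2 signal (horizontal axis) of the 48 counted genes at least 2-fold different between the A549 arrays, with siNTC as open and siTAZ as filled circles, 1 array each. Lines are red for the 36 higher and blue for the 12 lower genes, ordered by difference.

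The sterol and fatty acid genes leaned higher as a group, by small amounts. Of 21 counted cholesterol synthesis genes, 18 were higher and 3 lower, with a median of 0.22 and none at 1.5-fold. The enzymes spanned the pathway. ACAT2, which joins the first acetyl-CoA units, had 8.93 with siNTC and 9.36 with siTAZ (0.43). IDI1, which isomerises the isoprene unit, had 9.56 with siNTC and 9.98 with siTAZ (0.41). SQLE, which oxidises squalene, had 10.95 with siNTC and 11.23 with siTAZ (0.27), and LSS, which closes the ring, had 8.30 with siNTC and 8.69 with siTAZ (0.39). MSMO1, a demethylating oxygenase, had 9.68 with siNTC and 10.10 with siTAZ (0.42), and DHCR7, which makes cholesterol in the last step, had 10.69 with siNTC and 10.97 with siTAZ (0.28). HMGCS1, the synthase upstream of the reductase, went against these with 10.72 with siNTC and 10.32 with siTAZ (-0.40). All 5 counted regulators were higher, among them INSIG1, which retains the SREBP complex in the ER, with 8.91 with siNTC and 9.25 with siTAZ (0.34), and SREBF2, the sterol transcription factor, with 8.82 with siNTC and 8.97 with siTAZ (0.15).

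Of 16 fatty acid synthesis genes, 14 were higher, with a median of 0.16, and 1 reached 2-fold. ACLY, which cleaves citrate into cytosolic acetyl-CoA, had 10.89 with siNTC and 12.15 with siTAZ, 2.40-fold higher, the brightest of all genes at least 2-fold higher. ELOVL5, an elongase of polyunsaturated chains, had 10.91 with siNTC and 11.49 with siTAZ (0.58), SCD, the stearoyl desaturase, 12.02 with siNTC and 12.45 with siTAZ (0.42), and ELOVL6, an elongase of saturated chains, 8.11 with siNTC and 8.48 with siTAZ (0.37). The opposing pathway leaned the same way. Of 17 counted genes of fatty acid oxidation, 13 were higher, with a median of 0.11 and none at 1.5-fold, led by ACADM, the medium-chain dehydrogenase, with 9.23 with siNTC and 9.62 with siTAZ (0.39), and CPT1A, which carries fatty acids into mitochondria, with 9.49 with siNTC and 9.84 with siTAZ (0.36). Of 18 genes listed for the citric acid cycle, which include enzymes outside it such as IDH1 and PDHB, 13 were higher, with a median of 0.10. IDH1, the cytosolic isocitrate dehydrogenase, had 11.37 with siNTC and 11.85 with siTAZ (0.48), PDHB, of pyruvate dehydrogenase, 8.75 with siNTC and 9.19 with siTAZ (0.44), and IDH3A 10.87 with siNTC and 11.25 with siTAZ (0.38).

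The genes of transport between ER and Golgi leaned higher to a like extent, 34 of 43 with a median of 0.15. Of the COPII coat and TRAPP tethers, which carry cargo forward, 14 of 21 were higher. All 3 members at least 1.5-fold different were higher (14.3%, against 1.76% of all counted genes). SEC22C, an ER SNARE-like protein, had 6.95 with siNTC and 7.998 with siTAZ, 2.07-fold higher. SEC24A, a cargo-binding coat subunit, had 7.70 with siNTC and 8.49 with siTAZ, 1.72-fold higher, and SAR1A, the GTPase that starts coat assembly, had 9.42 with siNTC and 10.05 with siTAZ, 1.55-fold higher. Of the COPI coat and cargo receptors, which also serve retrieval, 20 of 22 were higher, with a median of 0.16 and none at 1.5-fold. TMED5, a p24 cargo receptor, had 9.40 with siNTC and 9.94 with siTAZ (0.55), KDELR3, a receptor that returns ER proteins, 7.37 with siNTC and 7.82 with siTAZ (0.45), and LMAN2, a lectin receptor, 10.65 with siNTC and 11.03 with siTAZ (0.38).

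ER chaperones showed the same lean. Of 20 counted chaperones and degradation factors, 17 were higher, with a median of 0.16, and none reached 1.5-fold. DNAJC3, a co-chaperone and kinase inhibitor, had 8.28 with siNTC and 8.83 with siTAZ (0.56), and EDEM3, a mannosidase of ER-associated degradation, 8.04 with siNTC and 8.53 with siTAZ (0.49). DNAJB9, another co-chaperone, was lower with 7.14 with siNTC and 6.81 with siTAZ (-0.33). The sensors and factors of the unfolded protein response were split, 7 higher and 6 lower. XBP1, the factor activated by IRE1, had 10.18 with siNTC and 10.63 with siTAZ (0.46), while DDIT3, which encodes the stress factor CHOP, had 7.58 with siNTC and 7.04 with siTAZ (-0.54). The amino acid arm of the integrated stress response leaned the other way, 13 of 17 lower with a median of -0.09. VLDLR, a lipoprotein receptor induced by ATF4, had 8.42 with siNTC and 7.58 with siTAZ, 1.79-fold lower, and CHAC1, which degrades glutathione, 7.42 with siNTC and 6.68 with siTAZ, 1.66-fold lower. ASNS, asparagine synthetase, had 8.57 with siNTC and 8.10 with siTAZ (-0.47), and MTHFD2, of mitochondrial folate metabolism, 10.50 with siNTC and 10.15 with siTAZ (-0.35). The dimmer probe set of MTHFD2 differed by -0.62. Genes of tRNA charging, many of them targets of the same arm, were lower in 20 of 32 counted members, none at 1.5-fold, with YARS1 at 9.97 with siNTC and 9.56 with siTAZ (-0.41).

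Ion and metal transporters held 5 genes at least 1.5-fold higher and 1 lower among 57 counted (8.8% and 1.8%). Over all counted genes the shares were 1.76% and 1.07%. Of the 57 transporters 42 were higher, with a median of 0.12. CACNA2D1, the alpha-2-delta subunit of voltage-gated calcium channels, had 7.31 with siNTC and 9.03 with siTAZ, the largest difference of the list. KCNN4, a calcium-activated potassium channel, had 6.89 with siNTC and 7.54 with siTAZ, 1.57-fold higher. CLIC4, a chloride channel protein that also binds the cytoskeleton, had 9.01 with siNTC and 9.93 with siTAZ, 1.89-fold higher. SLC4A4, a sodium bicarbonate cotransporter, had 6.99 with siNTC and 7.89 with siTAZ, 1.86-fold higher, and SLC12A2, the sodium, potassium and chloride cotransporter of secretory epithelium, had 10.66 with siNTC and 11.28 with siTAZ, 1.54-fold higher. ATP7A, the copper exporter, was the 1 lower member, with 8.38 with siNTC and 7.49 with siTAZ, 1.86-fold lower. Among zinc and iron carriers, SLC30A5, which loads zinc into the secretory pathway, had 9.50 with siNTC and 8.96 with siTAZ (-0.53) and SLC39A10, a zinc importer, 8.65 with siNTC and 9.12 with siTAZ (0.47). SLC40A1, the iron exporter ferroportin, had 8.39 with siNTC and 8.81 with siTAZ (0.42). Amino acid transporters showed no such lean, 8 higher and 12 lower of 20, none at 1.5-fold; SLC7A2, a cationic carrier, had 8.73 with siNTC and 8.20 with siTAZ (-0.53).

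Lysosomal genes leaned slightly higher, 27 of 38, with a median of 0.07 and none at 1.5-fold. Of the hydrolases and membrane proteins, 17 of 22 were higher. CTSV, a cysteine cathepsin, had 7.25 with siNTC and 7.63 with siTAZ (0.38), and NEU1, a sialidase, 9.61 with siNTC and 9.95 with siTAZ (0.35). Cathepsins as a family were higher in 9 of 10 counted members, with a median of 0.12. ATP6AP2, an accessory subunit of the proton pump, had 10.20 with siNTC and 10.57 with siTAZ (0.36). Autophagy genes were evenly divided, 12 and 12, led by ATG9A, the membrane scramblase of autophagy, with 8.15 with siNTC and 7.70 with siTAZ (-0.45). Endocytic adaptors other than NECAP1 stayed within 1.5-fold, 16 of all 30 being higher. Of the dynein and dynactin subunits, DCTN5 had 9.51 with siNTC and 8.61 with siTAZ, 1.87-fold lower, and DCTN4, which sits beside it in the pointed-end complex of dynactin, 8.97 with siNTC and 8.48 with siTAZ (-0.48), while the list as a whole had 10 higher and 11 lower.

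Growth arrest genes linked to FOXO factors held 2 members at least 1.5-fold higher and none lower, of 17 counted. Over all counted genes the shares were 1.76% higher and 1.07% lower. CCNG2, an atypical cyclin that restrains the cell cycle, had 6.72 with siNTC and 7.69 with siTAZ, 1.96-fold higher, and SESN3, a sestrin that restrains mTORC1, had 6.18 with siNTC and 6.96 with siTAZ, 1.71-fold higher. PDK4, which inhibits pyruvate dehydrogenase, had 9.94 with siNTC and 10.37 with siTAZ (0.43), and CDKN1B, the CDK inhibitor p27, was lower at 8.18 with siNTC and 7.82 with siTAZ (-0.36). The FOXO genes themselves differed little, FOXO1 by -0.19, FOXO3 by 0.00 and FOXO4 by 0.22. Of 25 counted p53 targets, 1 was at least 1.5-fold higher (4%, against 1.76% of all counted genes). TP53INP1, which promotes p53 activity and autophagy, had 6.26 with siNTC and 7.71 with siTAZ, while MDM2 (0.06), FAS (0.07) and BBC3 (-0.18) stayed near 0 or slightly lower. RRM2B, the p53-inducible ribonucleotide reductase subunit, had 8.47 with siNTC and 8.85 with siTAZ (0.38). The list as a whole did not lean, with 11 higher and 13 lower. Among apoptosis regulators, BCL2L1, which encodes the survival protein BCL-XL, had 10.60 with siNTC and 9.72 with siTAZ, 1.85-fold lower, the 1 member besides BNIP2 at 1.5-fold. These were 2 of 24 counted regulators (8.3%), against 1.07% lower over all counted genes. CASP4, an inflammatory caspase, had 7.60 with siNTC and 7.04 with siTAZ (-0.56).

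Genes of the cell cycle differed in single members rather than as lists. Of 84 counted mitosis genes, 43 were higher and 41 lower, with a median of 0.01. NEK7, a kinase of spindle assembly and of the NLRP3 inflammasome, had 7.20 with siNTC and 8.88 with siTAZ, and the other counted NEK genes lay between -0.26 (NEK3) and 0.17 (NEK9). CDC23, an APC/C subunit, had 8.96 with siNTC and 9.52 with siTAZ (0.56), and WEE1, which restrains CDK1, 8.46 with siNTC and 7.998 with siTAZ (-0.46). The 3 probe sets of WEE1 ran from -0.46 to -0.05, and the brightest is the one given. CCNB1, cyclin B1, had 11.52 with siNTC and 11.26 with siTAZ (-0.26). Of 61 counted replication and G1/S genes, 38 were lower, with a median of -0.03. CCND1, cyclin D1, had 10.22 with siNTC and 9.47 with siTAZ, 1.67-fold lower, and CCND3, cyclin D3, 9.78 with siNTC and 8.95 with siTAZ, 1.78-fold lower, so both D-type cyclins counted among the lower members. RRM2, the S-phase subunit of ribonucleotide reductase, had 9.22 with siNTC and 8.71 with siTAZ (-0.50). On the other side TK2, the mitochondrial thymidine kinase, had 7.10 with siNTC and 8.20 with siTAZ, 2.15-fold higher, and RFC5, of the clamp loader, 8.24 with siNTC and 8.93 with siTAZ, 1.62-fold higher. Of the origin and helicase genes, 15 of 21 were lower, none at 1.5-fold, led by MCM8 with 9.83 with siNTC and 9.42 with siTAZ (-0.41). Of 32 counted centrosome genes none reached 1.5-fold; CEP97, which restrains cilium growth, had 8.06 with siNTC and 8.63 with siTAZ (0.57) and CEP170 6.71 with siNTC and 7.26 with siTAZ (0.55). Of 32 DNA repair genes the lowest was PMS2, a mismatch repair subunit, with 8.91 with siNTC and 8.39 with siTAZ (-0.52).

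In A549 cells the antioxidant factor NRF2 is known to be constantly active because its inhibitor KEAP1 is defective, and its targets were among the brightest signals. Of 35 counted genes of that pathway, 18 were higher and 17 lower, with a median of 0.00. HMOX1, which was lower, was the only member at 1.5-fold (2.9%, against 1.07% of all counted genes). GCLM, the modifier subunit of glutathione synthesis, had 9.96 with siNTC and 9.53 with siTAZ (-0.43), SRXN1, sulfiredoxin, 10.68 with siNTC and 10.28 with siTAZ (-0.39), and NFE2L2, which encodes NRF2, 9.26 with siNTC and 8.996 with siTAZ (-0.27). TXNRD1, thioredoxin reductase, had 12.11 with siNTC and 12.26 with siTAZ (0.15). Aldehyde dehydrogenases, another group abundant in this line, ran from ALDH1A3, a retinoic acid enzyme, with 7.65 with siNTC and 7.15 with siTAZ (-0.50), to ALDH2, the mitochondrial enzyme, with 9.68 with siNTC and 10.06 with siTAZ (0.38), none of 14 at 1.5-fold. The dimmer probe set of ALDH1A3 differed by 0.0038. ALDH1A1, the brightest of them, had 13.57 with siNTC and 13.39 with siTAZ (-0.17).

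Central carbon metabolism and respiration differed little. Of 15 glycolytic enzymes, 11 were higher, with a median of 0.06. ALDOC, an aldolase isozyme, had 7.24 with siNTC and 7.78 with siTAZ (0.54), and ENO2, an enolase isozyme, 8.66 with siNTC and 9.11 with siTAZ (0.45), whereas SLC2A3, a glucose transporter, had 10.78 with siNTC and 10.21 with siTAZ (-0.58). Of the hypoxia genes, ADM, the vasodilator peptide adrenomedullin, was the 1 of 16 at 1.5-fold (6.25%, against 1.07% lower over all counted genes). It had 9.15 with siNTC and 8.40 with siTAZ, 1.69-fold lower. Of 69 counted subunits of oxidative phosphorylation, 34 were higher and 34 lower, with a median of 0.00 and differences between -0.25 and 0.45. Of 28 proteasome subunits none differed by more than 0.27 in size. Apart from CHCHD3, the other counted genes of cristae and mitochondrial fusion lay between -0.17 (OPA1) and 0.14 (MICOS10).

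Ribosomal proteins and initiation factors leaned slightly lower. Of 63 counted cytosolic ribosomal protein genes, 49 were lower, with a median of -0.08 and none at 1.5-fold; RPS29 had 7.14 with siNTC and 6.65 with siTAZ (-0.49). Mitochondrial ribosomal proteins were lower in 42 of 71, with a median of -0.01. Of 33 initiation factors, 23 were lower, with a median of -0.07, led by EIF3J with 8.72 with siNTC and 8.28 with siTAZ (-0.43), while 5 of 9 elongation and release factors were higher, with a median of 0.02. Small nucleolar RNAs, which guide rRNA modification, leaned lower too, with larger values. Of 40 counted C/D box members, 33 were lower, with a median of -0.18. At least 1.5-fold lower were 2 (5%, against 1.07% of all counted genes). SNORD81 had 6.55 with siNTC and 5.61 with siTAZ, 1.92-fold lower, and passed the signal limit only with siNTC. SNORD44 had 7.53 with siNTC and 6.84 with siTAZ, 1.62-fold lower. Both lie within introns of the host gene GAS5, as does SNORD75, which had 6.86 with siNTC and 6.35 with siTAZ (-0.51). Of these 40, 5 passed the signal limit only with siNTC and 1 only with siTAZ. Over all 115 on the array the median was -0.06, with 78 lower and 34 higher. Of 22 counted H/ACA box members, 16 were lower, with a median of -0.14, and over all 61 the median was -0.05. Splicing factors (20 of 35 higher, median 0.04) and nucleoporins (15 of 24 lower, median -0.03) did not reach 1.5-fold. SEH1L, a nucleoporin, had 8.36 with siNTC and 7.84 with siTAZ (-0.52). CNOT6, a deadenylase of the CCR4-NOT complex, had 8.69 with siNTC and 9.64 with siTAZ, 1.93-fold higher, the 1 of 23 genes of RNA interference and decay past 1.5-fold.

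**Figure D4:**
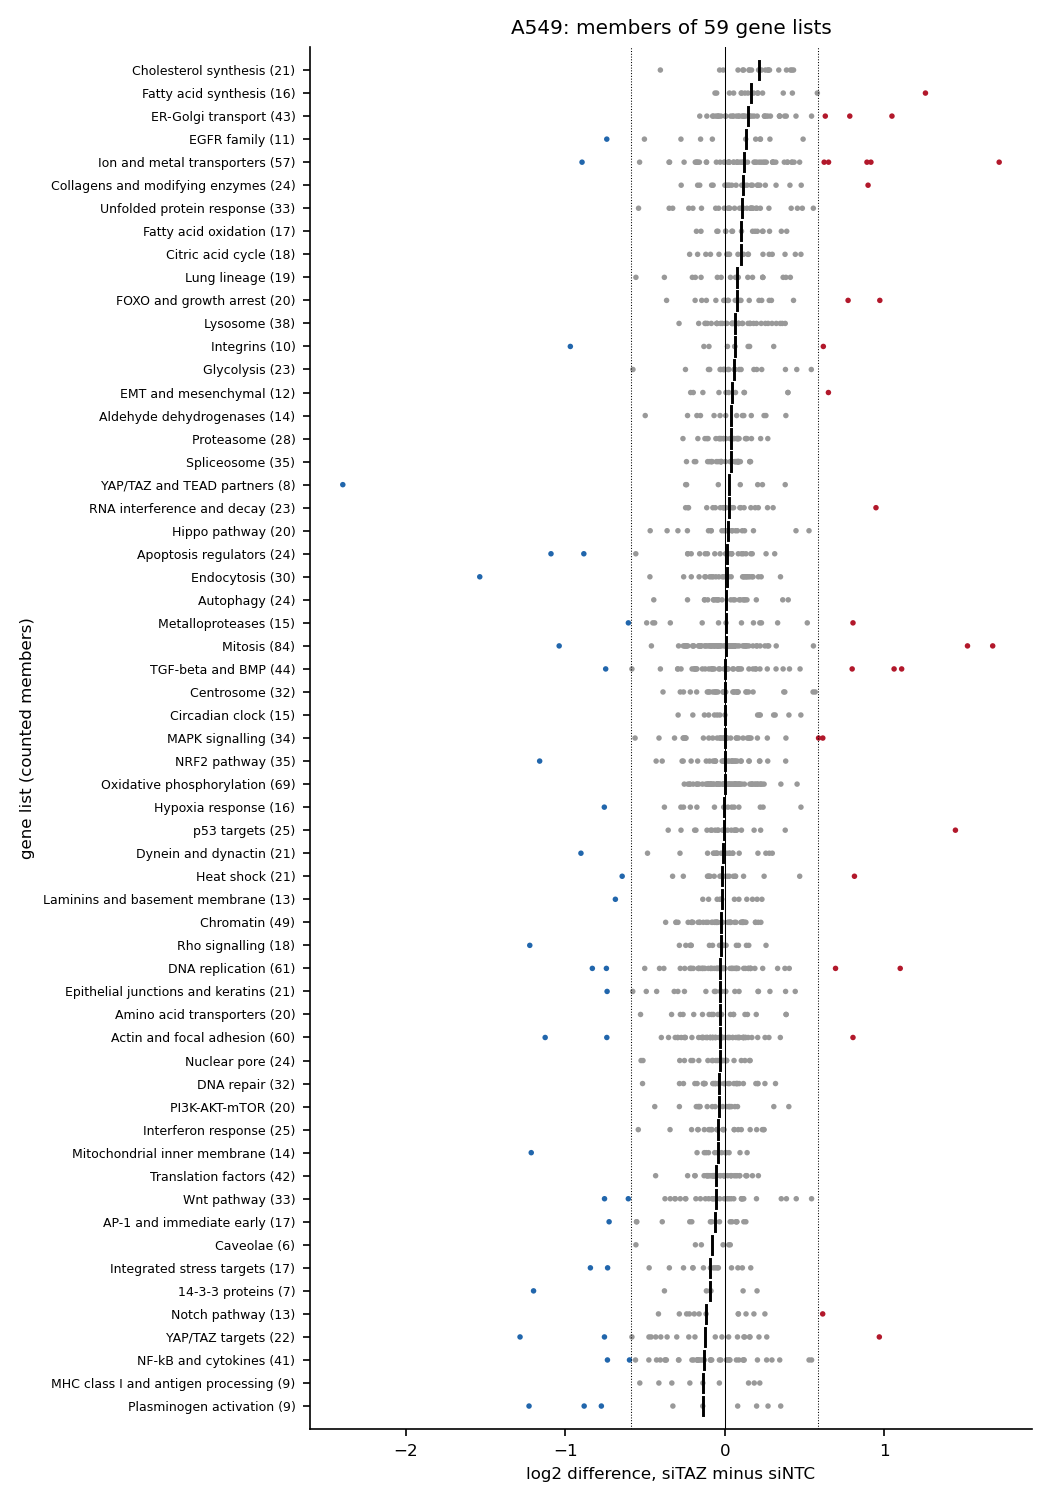
Log2 differences (siTAZ minus siNTC, horizontal axis) of the counted members of 59 gene lists, 1 row per list and 1 point per gene, with the number counted in parentheses. Black bars are list medians, dotted lines mark 1.5-fold; cholesterol synthesis has the highest median, 0.22.

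Genes of the cell surface and matrix differed in both directions. Of the integrin alpha chains, ITGA6, a laminin receptor chain, had 9.13 with siNTC and 8.16 with siTAZ, 1.96-fold lower, and ITGAV, the chain of vitronectin receptors, 9.89 with siNTC and 10.51 with siTAZ, 1.54-fold higher. The beta chains lay between -0.10 and 0.16. COL4A1, a basement membrane collagen, had 8.17 with siNTC and 7.48 with siTAZ, 1.61-fold lower, while its partner COL4A2 had 8.43 with siNTC and 8.30 with siTAZ (-0.14). Among collagens and their enzymes, 19 of 24 were higher, with a median of 0.12, and over all 31 on the array 23 were higher, with a median of 0.07. P4HA3, a prolyl hydroxylase subunit, had 6.84 with siNTC and 7.74 with siTAZ, 1.87-fold higher, PCOLCE2, an enhancer of procollagen processing, 7.07 with siNTC and 7.55 with siTAZ (0.48), and COL1A1 7.31 with siNTC and 7.72 with siTAZ (0.41). The enzymes carried the lean, 12 of 14 higher with a median of 0.17, against 7 of 10 and 0.03 for the chains.

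Genes of proteolysis at the cell surface held members on both sides. MMP24, a membrane-type metalloprotease, had 7.91 with siNTC and 7.31 with siTAZ, 1.52-fold lower, and the sheddases ADAM10 and ADAM9 had 11.24 with siNTC and 10.75 with siTAZ (-0.49) and 11.94 with siNTC and 11.49 with siTAZ (-0.45). Of 11 counted metalloproteases, 7 were lower, with a median of -0.14. All 4 counted inhibitors were higher, TIMP4 with 7.68 with siNTC and 8.49 with siTAZ, 1.75-fold higher, and TIMP2 with 8.92 with siNTC and 9.43 with siTAZ (0.52). In the plasminogen system, 3 of 9 counted members were at least 1.5-fold lower, against 1.07% of all counted genes. Besides SERPINE2 these were PLAU, which encodes urokinase, with 9.11 with siNTC and 8.34 with siTAZ, 1.71-fold lower, and TFPI2, an inhibitor of plasmin and coagulation factors, with 10.20 with siNTC and 9.32 with siTAZ, 1.84-fold lower. PLAUR, the urokinase receptor, had 8.12 with siNTC and 8.32 with siTAZ (0.20), and PLAT, the tissue activator, 6.53 with siNTC and 6.88 with siTAZ (0.35). The lower members thus included both a protease and inhibitors of proteases.

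Junction genes were mixed, while the counted keratins were lower and most counted mesenchymal markers higher. The 5 counted keratins were all lower, with a median of -0.29 and none at 1.5-fold. KRT8 and KRT18, the pair of simple epithelia and among the brightest genes on the arrays, had 13.46 with siNTC and 13.04 with siTAZ (-0.43) and 13.47 with siNTC and 13.15 with siTAZ (-0.32). Of 16 counted junction genes, 9 were higher and 7 lower, with a median of 0.01. CLDN1, a tight junction claudin, had 9.97 with siNTC and 9.24 with siTAZ, 1.67-fold lower, and DSG2, a desmosomal cadherin, 9.18 with siNTC and 8.60 with siTAZ (-0.58). CDH1, E-cadherin, had 8.68 with siNTC and 8.96 with siTAZ (0.28). Of 9 counted mesenchymal markers, 8 were higher, with a median of 0.12, and 2 of the 9 passed the signal limit only with siTAZ. Over all 13 on the array 8 were higher and 5 lower, with a median of 0.03. THY1, a surface glycoprotein, had 6.05 with siNTC and 6.70 with siTAZ, 1.57-fold higher, and reached the signal limit only with siTAZ. CDH2, N-cadherin, was the 1 lower counted marker, with 7.91 with siNTC and 7.78 with siTAZ (-0.14). FN1, fibronectin, had 10.94 with siNTC and 11.01 with siTAZ (0.07). All 3 counted EMT factors, FOXC2, TWIST1 and ZEB1, differed by -0.21 to -0.04.

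Of 60 counted actin and focal adhesion genes, 37 were lower, with a median of -0.03. Besides CSRP1, TPM1, a tropomyosin, was at least 1.5-fold lower, with 8.45 with siNTC and 7.71 with siTAZ, 1.67-fold lower, and LPP, a LIM protein of focal adhesions, at least 1.5-fold higher, with 7.96 with siNTC and 8.77 with siTAZ, 1.75-fold higher. SRF, the serum response factor that drives cytoskeletal genes, had 8.51 with siNTC and 8.11 with siTAZ (-0.40). Among caveolar genes, CAV1, the coat protein, had 9.75 with siNTC and 9.19 with siTAZ (-0.56). CAVIN1 (-0.15), CAVIN3 (-0.18), CAVIN2 (0.03), EHD2 (0.03) and PACSIN2 (-0.01) were closer to 0.

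In the TGF-beta and BMP pathway, 44 genes were counted, 22 in each direction. SMAD5, a transducer of BMP signals, had 7.46 with siNTC and 8.53 with siTAZ, 2.09-fold higher. TGFBR1, the type I TGF-beta receptor, had 7.55 with siNTC and 8.35 with siTAZ, 1.74-fold higher, and TGFBR2, the type II receptor, 10.09 with siNTC and 10.56 with siTAZ (0.47). BAMBI, a decoy receptor, had 9.29 with siNTC and 10.40 with siTAZ, 2.16-fold higher. GREM1, a secreted BMP antagonist, was lower with 8.28 with siNTC and 7.54 with siTAZ, 1.68-fold lower. The inhibitors therefore differed in opposite directions. BMP8B had 6.87 with siNTC and 6.29 with siTAZ (-0.58).

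Among 33 counted Wnt genes, the 2 members at 1.5-fold were both secreted and lower (6.1%, against 1.07% of all counted genes). WNT7B, a ligand of lung epithelium, had 8.33 with siNTC and 7.58 with siTAZ, 1.69-fold lower, and DKK1, an antagonist of the LRP co-receptors, 11.65 with siNTC and 11.04 with siTAZ, 1.52-fold lower. FZD6, a receptor, had 8.53 with siNTC and 9.08 with siTAZ (0.55). In the Notch list RBPJ, the DNA-binding effector, had 8.09 with siNTC and 8.71 with siTAZ, 1.53-fold higher, but its probe sets disagreed, at -0.20 and 0.62. JAG1, a ligand, had 9.45 with siNTC and 9.04 with siTAZ (-0.42).

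Of the EGFR family ligands, EREG, epiregulin, had 10.29 with siNTC and 9.55 with siTAZ, 1.67-fold lower, and NRG1, neuregulin, 8.76 with siNTC and 8.26 with siTAZ (-0.50). The dimmer probe set of NRG1 differed by -0.61. EGFR itself had 8.46 with siNTC and 8.18 with siTAZ (-0.27), and LRIG1, which restrains ERBB receptors, 6.92 with siNTC and 7.41 with siTAZ (0.49). In the MAPK cascade, MAPK6, the atypical kinase ERK3, had 8.07 with siNTC and 8.68 with siTAZ, 1.53-fold higher, and MAP2K6, an activator of p38, 8.17 with siNTC and 8.76 with siTAZ, 1.504-fold higher. Of the feedback genes DUSP1 had 10.76 with siNTC and 10.20 with siTAZ (-0.56) and DUSP5 9.36 with siNTC and 8.95 with siTAZ (-0.41), with 10 of 16 lower and none at 1.5-fold. Of 17 AP-1 and immediate early genes, 10 were lower. NR4A1, an orphan nuclear receptor induced by growth signals, had 8.51 with siNTC and 7.79 with siTAZ, 1.65-fold lower, MYC 10.16 with siNTC and 9.60 with siTAZ (-0.55), and FOSL2, an AP-1 subunit, 9.25 with siNTC and 8.70 with siTAZ (-0.55). FOSL1, another AP-1 subunit, had 7.71 with siNTC and 7.32 with siTAZ (-0.39). Of 20 PI3K, AKT and mTOR genes none reached 1.5-fold.

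Of 41 counted inflammatory genes, 26 were lower, with a median of -0.13. Over all 50 on the array the median was -0.06, with 28 lower and 22 higher. Of 12 counted chemokines and cytokines, 10 were lower, with a median of -0.25. CXCL1, a neutrophil chemokine, had 9.53 with siNTC and 8.79 with siTAZ, 1.67-fold lower. CXCL2 had 7.47 with siNTC and 6.91 with siTAZ (-0.56), CXCL8 6.57 with siNTC and 6.09 with siTAZ (-0.48) and CCL2, a monocyte chemokine, 8.13 with siNTC and 7.73 with siTAZ (-0.40). Of these 12, 2 passed the signal limit only with siNTC, and over all 20 on the array 12 were lower, with a median of -0.10. Of the NF-kB factors and inhibitors, 9 of 14 were lower, with a median of -0.11, NFKB2 with 8.07 with siNTC and 7.70 with siTAZ (-0.37) and TNFAIP3, a feedback inhibitor, with 6.79 with siNTC and 6.50 with siTAZ (-0.29). Receptors were split, TNFRSF21 with 9.76 with siNTC and 9.17 with siTAZ, 1.51-fold lower, and IL1R1 with 8.22 with siNTC and 8.76 with siTAZ (0.55). Of 25 counted interferon genes 16 were lower and none reached 1.5-fold, while all 42 on the array were divided into 20 higher and 20 lower with a median of 0, IRF1, a factor of interferon responses, being lowest with 7.24 with siNTC and 6.70 with siTAZ (-0.54). Of 9 counted antigen processing genes 6 were lower, with a median of -0.14, and over all 10 on the array the median was -0.09; TAP2, a peptide transporter subunit, had 7.87 with siNTC and 7.34 with siTAZ (-0.53) and TAP1 8.87 with siNTC and 8.46 with siTAZ (-0.41).

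Of 19 counted lung lineage genes none reached 1.5-fold, with 12 higher. ETV5, a factor of alveolar progenitors, had 7.83 with siNTC and 8.21 with siTAZ (0.38), and GATA6 7.67 with siNTC and 7.47 with siTAZ (-0.20). The 21 counted heat shock proteins held 1 member at 1.5-fold on each side (4.8% each, against 1.76% higher and 1.07% lower over all counted genes). HSPB1, a small heat shock protein, had 11.61 with siNTC and 12.43 with siTAZ, 1.76-fold higher. DNAJB4, a co-chaperone, had 8.10 with siNTC and 7.46 with siTAZ, 1.56-fold lower. Of 15 clock genes none reached 1.5-fold, PER2, a repressor of the clock, being highest with 7.23 with siNTC and 7.71 with siTAZ (0.48). Of 49 chromatin regulators none reached 1.5-fold either, with SMARCC2, a SWI/SNF core subunit, lowest at 9.03 with siNTC and 8.66 with siTAZ (-0.37).

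Families grouped by symbol alone, without regard to pathway, mostly centred near 0. The 148 counted TMEM genes had 90 higher and 56 lower, with a median of 0.04. At least 1.5-fold higher were 4 (2.7%) and lower 1 (0.68%), against 1.76% and 1.07% of all counted genes. TMEM37 had 7.003 with siNTC and 7.73 with siTAZ, 1.66-fold higher, and TMEM168 8.05 with siNTC and 7.28 with siTAZ, 1.70-fold lower. Of 57 RAB GTPases, 40 were higher, with a median of 0.05. The 3 RAB genes at least 1.5-fold higher were 5.3% of them and the 1 lower 1.8%, against 1.76% and 1.07% of all counted genes. RAB27A, of secretory vesicle docking, had 7.41 with siNTC and 8.36 with siTAZ, 1.93-fold higher, and RAB37 5.63 with siNTC and 6.48 with siTAZ, 1.80-fold higher, the latter above the signal limit only with siTAZ. RAB43 had 6.14 with siNTC and 6.81 with siTAZ, 1.59-fold higher, and RAB12 6.77 with siNTC and 6.16 with siTAZ, 1.52-fold lower. Tetraspanins were higher in 12 of 14 counted members, with a median of 0.10; TSPAN7 had 7.38 with siNTC and 8.003 with siTAZ, 1.54-fold higher. Of the serpins, 10 of 33 were counted, and 5 of those 10 passed the signal limit only with siTAZ, so the count of 9 higher is not a result. Over all 33 the median was 0.06, with 19 higher and 12 lower. SERPINB9, an inhibitor of granzyme B, had 7.09 with siNTC and 8.34 with siTAZ, 2.37-fold higher, and SERPINA6, the corticosteroid-binding globulin, 6.01 with siNTC and 6.88 with siTAZ, 1.82-fold higher, the latter counted only through the siTAZ array.

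Ubiquitin genes differed in single members. USP14, a deubiquitinase of the proteasome, had 9.16 with siNTC and 9.97 with siTAZ, 1.75-fold higher, although 28 of 43 USP genes were lower, with a median of -0.06. FBXO7, an F-box protein of mitophagy, had 9.15 with siNTC and 9.87 with siTAZ, 1.64-fold higher, while FBXO45 had 8.01 with siNTC and 7.23 with siTAZ, 1.72-fold lower, and FBXO30 9.20 with siNTC and 8.59 with siTAZ, 1.53-fold lower. KLHL11 had 7.75 with siNTC and 6.85 with siTAZ, 1.87-fold lower, and KLHL15 7.12 with siNTC and 7.94 with siTAZ, 1.77-fold higher. Among receptors, ADGRG1, an adhesion GPCR, had 8.60 with siNTC and 9.44 with siTAZ, 1.79-fold higher, GPR39, a zinc-sensing receptor, 7.39 with siNTC and 7.99 with siTAZ, 1.52-fold higher, and GPRC5A, a lung receptor induced by retinoic acid, 10.42 with siNTC and 9.65 with siTAZ, 1.71-fold lower. Of 47 counted F-box genes, 2.1% were at least 1.5-fold higher and 4.3% lower. The shares were 3.4% each way of 29 KLHL and KBTBD genes, and 5.4% and 2.7% of 37 receptor genes. Of the 43 USP genes 2.3% were higher and none lower. Over all counted genes the shares were 1.76% and 1.07%, and each family share rests on 1 or 2 genes. PLEKHA1, a phosphoinositide-binding adaptor, had 7.93 with siNTC and 9.36 with siTAZ, and PLEKHB2, of recycling endosomes, 10.26 with siNTC and 10.98 with siTAZ, 1.65-fold higher. ABCG1, a sterol exporter, had 5.83 with siNTC and 6.58 with siTAZ, 1.68-fold higher, and reached the signal limit only with siTAZ. ANXA13, an annexin of polarised epithelium, had 6.66 with siNTC and 7.36 with siTAZ, 1.62-fold higher. SLC35G1 had 7.74 with siNTC and 6.92 with siTAZ, 1.76-fold lower. Of 267 counted ZNF genes, 138 were higher and 126 lower. Past 1.5-fold were 3 of them, ZNF792 and ZNF460 higher (0.75%) and ZNF487 lower (0.37%), against 1.76% and 1.07% of all counted genes. ZNF792 passed the signal limit only with siTAZ and ZNF487 only with siNTC.

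**Figure D5:**
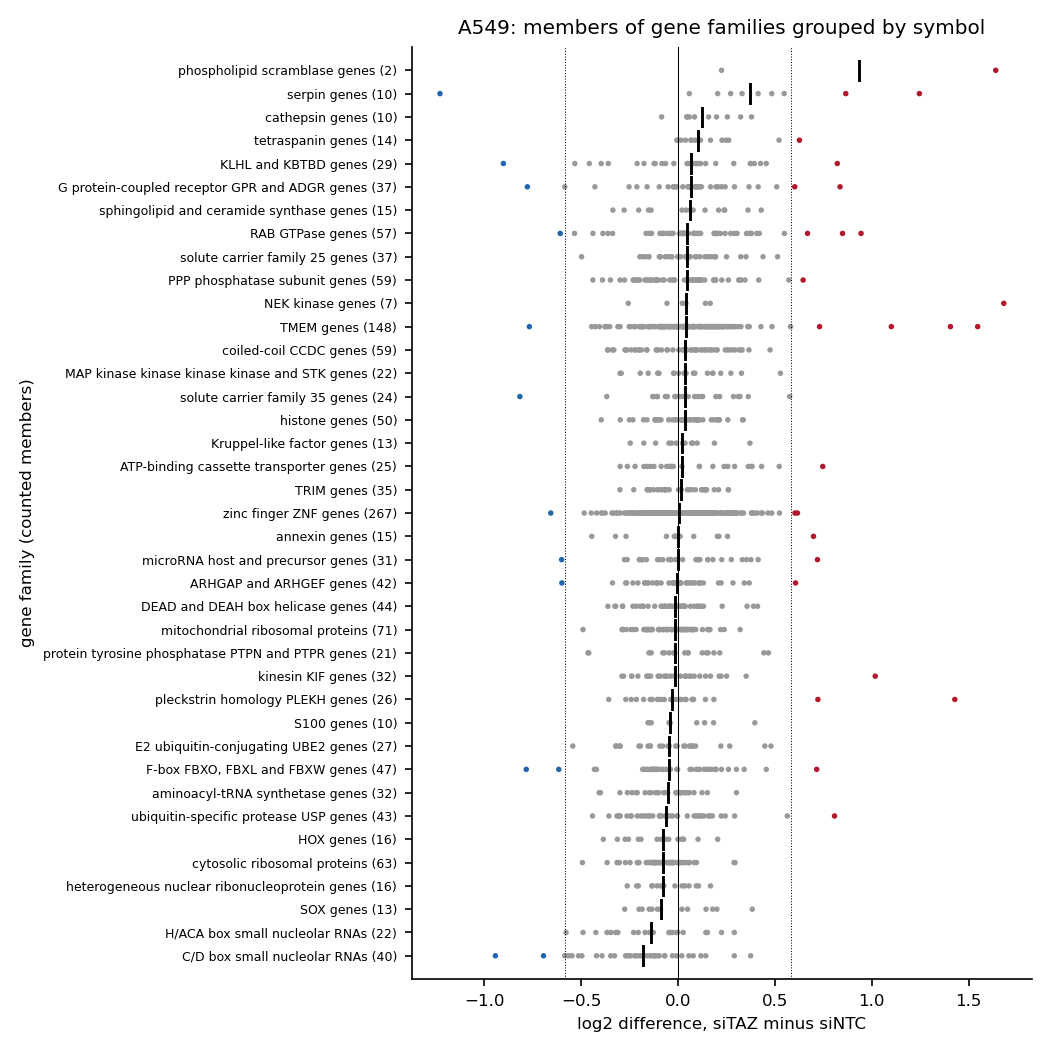
Log2 differences (siTAZ minus siNTC, horizontal axis) of the counted members of 39 gene families grouped by symbol, 1 row per family and 1 point per gene. Black bars are family medians and dotted lines mark 1.5-fold; of the serpins, 5 of 10 were counted through the siTAZ array alone.

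The H441 arrays, which share no sample with the A549 pair, were used to see how these genes read in a second line. Both lines received siTAZ against siNTC. The effect of TAZ loss and other effects of the siRNA therefore cannot be told apart in either line. Of the 201 genes at least 1.5-fold higher in A549, 158 were counted in H441, 142 higher and 16 lower there, with a median of 0.31. Of the 122 lower ones, 106 were counted, 89 lower and 17 higher, with a median of -0.37. Over all 11911 genes counted in H441, 6051 were higher and 5809 lower, with a median of 0.0048. At 1.5-fold in the same direction stood 23 of the 158 and 25 of the 106, against 0.479% and 0.974% of the 11911 genes counted in H441. None of either set was at least 1.5-fold different in the opposite direction. Of the 36 genes at least 2-fold higher, 29 were counted in H441 and 27 of them were higher. Of the 12 lower ones 9 were counted and all 9 were lower. Both the 106 and these 9 include WWTR1, the gene that siTAZ targets in both lines. Most differences were smaller in H441 than in A549, which choosing genes by their A549 value by itself favours, and the difference between the lines was not tested, since 4 arrays leave 0 residual degrees of freedom. NECAP1 differed by -0.61 in H441, CHCHD3 by -0.997, YWHAH by -0.83 and PKN2 by -1.23. Of the higher genes, UHMK1 differed by 0.71, CENPK by 0.59, TP53INP1 by 0.23 and ACLY by 0.95. NT5E, higher in A549, had -0.18 in H441, and CCN2, lower in A549, had 0.24.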

How the data were processed

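The values are log2 probe set signals of Affymetrix whole-transcript arrays as deposited by the authors, made with RMA per the submitters' processing notes. Version, software and joint or separate normalization of the arrays are not stated there, and the scale was read from the range of the values. Folds of dim probe sets are understated by RMA. Precision is limited by the number of arrays, 1 per group.

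Names came from the platform annotation: 19310 of 28869 had 1 symbol, 1752 several and 7807 none, and 19279 of the single-symbol ones matched RefSeq by Entrez identifier. For the 685 genes with several probe sets the one brightest on average over all arrays was taken, and among 486 such genes counted in A549 the probe sets of 154 differed in sign. Genes were counted if at least 1 A549 array reached the table median. Differences were computed per gene with no test; files were read with Python 3.11.15 and pandas 2.3.3, and limma 3.58.1 in R 4.3.3 made the quantile and cyclic loess alternatives. In simulated arrays the counting step returned the number of genes that had been shifted past 2-fold. Those genes were bright, had 1 probe set each, and stood in less scatter than the real pair shows. The run thus checked the counting code only, and the 1.5-fold calls and dim genes were not tested.

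The lists, families and members were chosen with earlier results of these data known, so a list's lean is not independent support. Genes were named by this rule: WWTR1, YAP1, every gene at least 2-fold different, members of a list or family at least 1.5-fold different with up to 6 more of the largest differences, members of the YAP/TAZ, TEAD, 14-3-3 and caveolae lists, and the 6 brightest of a list. TM4SF1, CD14, MDM2, FAS and the genes beside a threshold fall outside it, and their values were seen before they were chosen. The alternatives were 3 other scalings, no signal limit, a signal limit on both arrays, and the mean of a gene's probe sets. No alternative left out a replicate, since each group has 1 array.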

Additional observations from a re-analysis of the deposited data

Results flagged for a closer look

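For 4 roles of the gene lists the median lay on opposite sides of 0 in the 2 lines by more than 0.1 on each side, and the difference between the lines was not tested. The vestigial-like TEAD cofactors had a median of 0.31 in A549 and -0.41 in H441, over 2 counted members in each line. The integrin alpha chains had 0.11 over 6 counted members in A549 and -0.12 over 5 in H441. The metalloproteases of the MMP, ADAM and ADAMTS families had -0.14 over 11 members and 0.21 over 10. The receptors and feedback genes of the EGFR family had 0.16 and -0.13, over 6 members in each line. Each of these medians rests on 2 to 11 members, and 104 roles and 39 families were compared in this way.

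Probe sets outside the gene table also held differences past 2-fold. Of 9559 probe sets with no symbol or several, 2539 reached the signal limit in A549. Of these, 21 were at least 1.5-fold higher (0.83%) and 29 lower (1.14%), against 1.76% and 1.07% of counted genes. The 2 higher ones at 2-fold had differences of 1.001 (8.53 with siNTC and 9.53 with siTAZ) and 1.05 (8.21 and 9.27). The 4 lower ones ran from -1.11 to -1.01. What these probe sets measure is not named by the annotation used here.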

How the results depend on the processing

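Over all genes, no gene called at 1.5-fold changed direction and no count moved by more than 1.5 times under the 6 alternatives. The genes at least 1.5-fold higher numbered 181 to 216 and the lower ones 117 to 146; at 2-fold they numbered 34 to 40 and 11 to 13. The share of higher genes among those at 1.5-fold ran from 58.5% after median centring to 64.4% after cyclic loess. WWTR1 ran from -2.45 to -2.39. Of the 323 genes at 1.5-fold, 311 stayed there after median centring, 319 after quantile normalization, 318 after cyclic loess and 318 with the mean of probe sets. With the signal limit on both arrays 298 were still counted, all past 1.5-fold. At 2-fold, MTPN was at 0.995 and TOR1B at 0.999 after median centring, MTPN at 0.985 after quantile normalization, and MIGA1 at 0.48 with the mean of probe sets. ANKRD1 and PLSCR4 were not counted with the limit on both arrays. CCN2 reached 1.5-fold after median centring, at -0.59, and after quantile normalization. Counts of single lists moved with such genes: YAP/TAZ targets at least 1.5-fold lower numbered 2, but 3 under those 2 scalings and 1 with the limit on both arrays. Of 202 lists, roles and families, 47 had a median at least 0.1 from 0, and 0 of them changed sign under the 3 scalings. The 202 overlap, since each list holds the members of its roles. Medians moved by more than 0.1 in 6 of the 202 without a signal limit, in 2 with the limit on both arrays and in 1 under each scaling. No paired analysis was possible because the labels carry no replicate numbers and each group holds 1 array.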
